A study of Mus musculus with 27 samples.

Results

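Casz1, Hepacam2, Spp1 and Asb4 are 4 of the 39017 genes in a count table of spinal motor neuron progenitors made from mouse embryonic stem (ES) cells. They were chosen by their measured values: each had fewer reads in progenitors that made an SD-domain mutant of the transcription factor Nkx2.2 than in progenitors that made wild-type Nkx2.2. That difference is therefore a description here and carries no test, and the same holds for comparisons that share its libraries. The pancreas and islet libraries played no part in the choice, and the members were tested there.

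Nkx2.2 is a homeodomain protein that patterns the ventral neural tube, where it represses the motor neuron programme, and that is also needed for the endocrine cells of the pancreas. Its SD domain is a short conserved stretch specific to the NK2 family. Casz1 is a zinc finger transcription factor of neural, heart and retinal development. Hepacam2 is an immunoglobulin-like membrane protein related to the adhesion molecule Hepacam. Spp1 encodes osteopontin, a secreted phosphoprotein that binds integrins and Cd44 and that in pancreas is best known from ducts. Asb4 carries ankyrin repeats and a SOCS box, through which such proteins recruit a Cul5 ubiquitin ligase, and lies in the imprinted gene cluster around Peg10.

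The progenitors came from day 4 of differentiation. The pMN group (3 libraries) is the untreated iNkx2.2 line, the iNkx2.2 group (3 libraries) is the same line given doxycycline at 1 µg/ml for about 16 h to switch on a FLAG-tagged wild-type Nkx2.2, and the iSDmut group (2 libraries) is another line that switches on a FLAG-tagged SD-mutant copy in the same way. Each transgene is represented by 1 ES line, and no untreated iSDmut library was used here, so the line and the mutation cannot be told apart. Doxycycline was given to all iNkx2.2 and iSDmut libraries and to no pMN library. Against pMN, the drug and the induced Nkx2.2 therefore cannot be told apart. A comparison of iSDmut with pMN is also one between 2 lines. Whole embryonic pancreas at E15.5 gave 3 control and 4 Nkx2.2 SDmut libraries. Islets at 8 weeks gave 2 control libraries and 3 with the SD mutation in beta cells (betaSDmut). Islets at 4 weeks gave 2 control libraries and 2 labelled betaKO, a label that stands for knockout of Nkx2.2 in beta cells. The control genotypes, the sex of the animals and the driver of beta-cell recombination are not given in the sources used here. Nothing states that all libraries came from separate animals or cultures, so p-values measure the spread between these libraries, which may be technical.

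Library totals ran from 17757991 to 46840701 counts in progenitors, 38447596 to 41840638 in E15.5 pancreas and 12398041 to 32385406 in islets. All 4 members passed the filter on low counts. Levels below are CPM, read counts scaled to a library of 1000000 reads with TMM factors, and levels of different genes are compared only as the authors' FPKM, which divide by gene length. Nkx2-2, which encodes Nkx2.2, stood at 5.40 to 11.6 CPM in pMN, 343 to 378 in iNkx2.2 and 245 to 248 in iSDmut, so transcripts of the gene were 1.44-fold lower in iSDmut than in iNkx2.2. In the 4-week islets Nkx2-2 stood at 76.2 and 103 CPM in controls and at 64.6 and 92.9 CPM in the libraries labelled betaKO, so the transcript did not set those groups apart. The progenitor marker Sox2 was at 126 CPM or more in all 8 progenitor libraries and the pluripotency gene Pou5f1 at 1.27 CPM or less. Olig2, which marks motor neuron progenitors, was at 200 to 284 CPM in pMN, 2.82 to 10.5 CPM in iNkx2.2 and 25.6 to 87.1 CPM in iSDmut. Lane 2 held 5 of the 8 progenitor libraries, lane 4 the third replicates of pMN and iNkx2.2, and lane 3 the second iSDmut library. The defining markers of the labelled tissues were present: Cpa1, an acinar enzyme, stood at 2840 to 7340 CPM at E15.5, and Ins2, which encodes insulin, at 107000 CPM or more in islets. Ins2 at E15.5 stood at 154 to 443 CPM in controls and at 8.33 to 14.6 CPM in SDmut. Among E15.5 libraries, control 3 and SDmut 2 held skeletal muscle transcripts, with 5583 and 6501 CPM summed over 10 muscle genes against at most 77.3 CPM in the other 5.

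In the progenitors the members shared the low iSDmut level and differed in how iNkx2.2 stood to pMN. Casz1 and Hepacam2 were far higher in iNkx2.2 than in pMN, Asb4 was moderately higher, and Spp1 overlapped between those groups. The wording "activates less", under which the genes were gathered, therefore describes the levels of Casz1 and Hepacam2. Its only baseline here is the untreated iNkx2.2 line, which is not the line of iSDmut. For Spp1 and Asb4 the wording leaves out that their iSDmut level lay below that baseline. Their rise from pMN to iNkx2.2 was small, and for Spp1 it was seen between libraries of the same replicate number. Every iSDmut library lay below every iNkx2.2 library for all 4 members, as the choice required, and for 16.4% of the 15653 genes tested.

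**Figure D1:**
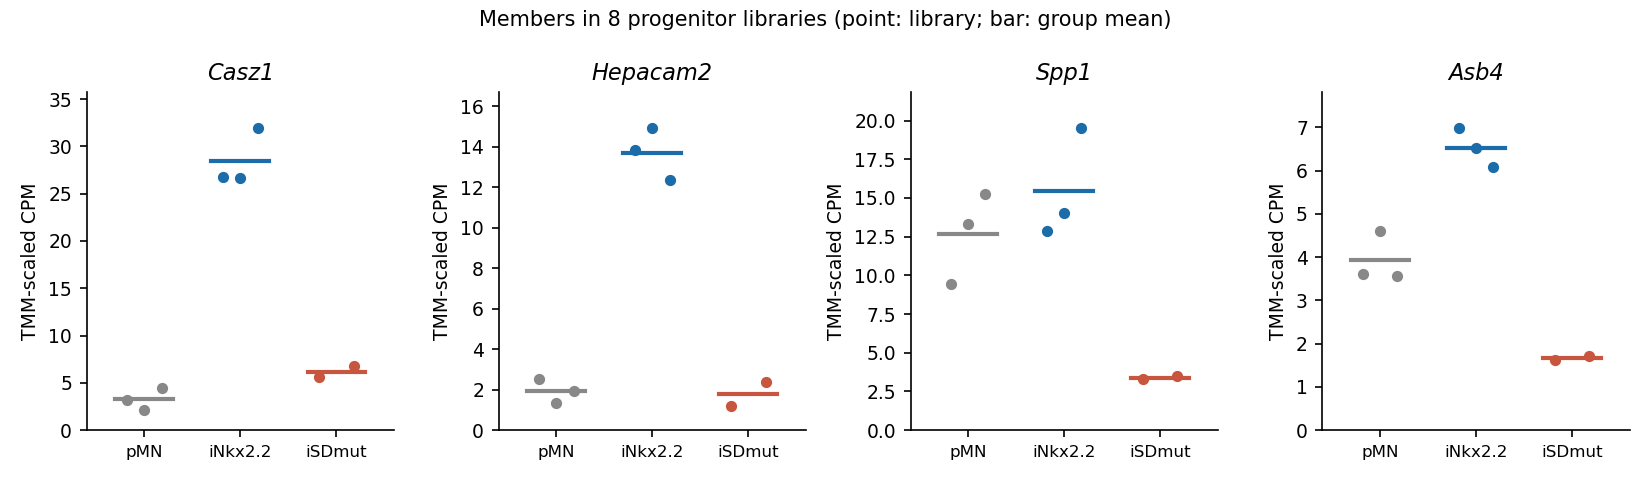
TMM-scaled CPM (y axis, from 0) of the 4 members in the pMN, iNkx2.2 and iSDmut groups (x axis); each point is a library and each bar a group mean. Casz1 in iSDmut sits just above pMN, Hepacam2 at the pMN level, and Spp1 and Asb4 below it.

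Casz1 stood at 3.23, 2.18 and 4.49 CPM in pMN, at 26.8, 26.6 and 31.9 CPM in iNkx2.2 and at 5.60 and 6.73 CPM in iSDmut. The 3 groups did not overlap and lay in the order pMN, iSDmut, iNkx2.2, an order that 1.46% of genes tested had. The choice fixed its last step, which 2560 genes had, and 229 of those had the whole order. Its log2 fold change was 3.09 (SE 0.241) from pMN to iNkx2.2 and 0.89 (SE 0.263) from pMN to iSDmut. Between the induced groups the level was 4.60-fold lower in iSDmut, a log2 fold change of -2.20 (SE 0.266), and 142 genes had a lower one. On the authors' FPKM scale the lowest iSDmut value, 0.722, lay close to the highest pMN value, 0.708. Casz1 spans chr4:148804366-148954893 on the plus strand (GRCm38, RefSeq annotation).

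Hepacam2 stood at 2.505, 1.33 and 1.95 CPM in pMN, at 13.8, 14.9 and 12.3 CPM in iNkx2.2 and at 1.18 and 2.37 CPM in iSDmut. The iSDmut libraries lay on both sides of the lowest pMN library, so iSDmut showed no level above that of the untreated iNkx2.2 line. Against iNkx2.2 the level in iSDmut was 7.58-fold lower (log2 fold change -2.92, SE 0.355), and against pMN the log2 fold change was -0.10 (SE 0.351). In iNkx2.2 the level was 7.06-fold that of pMN, with a log2 fold change of 2.82 (SE 0.301). The iSDmut libraries held 21 and 57 Hepacam2 reads, and those of Asb4 29 and 41, so counting error bears on both members. In lane 2 alone, where iSDmut has only the library with 21 reads, the log2 fold change against iNkx2.2 was -3.61. The gene spans chr6:3457089-3498322 on the minus strand.

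Spp1 stood at 9.46, 13.3 and 15.2 CPM in pMN, at 12.8, 14.0 and 19.5 CPM in iNkx2.2 and at 3.304 and 3.49 CPM in iSDmut. The pMN and iNkx2.2 groups overlapped, and both iSDmut libraries lay below all 6 others. From pMN to iNkx2.2 the log2 fold change was 0.28 (SE 0.220), while from pMN to iSDmut it was -1.90 (SE 0.276), a 3.73-fold lower level. Replicate numbers paired pMN with iNkx2.2, and each iNkx2.2 library lay above the pMN library of the same number. With replicate number as a block, the log2 fold change from pMN to iNkx2.2 was 0.29 (SE 0.124). Every iSDmut library lay below every pMN library for 19.2% of genes tested. The gene spans chr5:104435111-104441053 on the plus strand.

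Asb4 stood at 3.62, 4.61 and 3.56 CPM in pMN, at 6.98, 6.54 and 6.07 CPM in iNkx2.2 and at 1.62 and 1.70 CPM in iSDmut. No group overlapped another, and the order was iSDmut, pMN, iNkx2.2, which held for 0.345% of genes tested. The choice fixed part of it, since 2560 genes had iSDmut below iNkx2.2, and 54 of those had the whole order. Against pMN the log2 fold change was 0.74 (SE 0.207) in iNkx2.2 and -1.23 (SE 0.254) in iSDmut, values that lie on opposite sides of 0. The gene spans chr6:5383386-5433022 on the plus strand.

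Counted over the 4 members, iNkx2.2 lay above pMN without overlap for Casz1, Hepacam2 and Asb4, where 16.0% of genes tested did. The iSDmut group lay above pMN without overlap for Casz1 alone among the members, where 17.2% of genes did. These comparisons share the pMN, iNkx2.2 or iSDmut libraries with one another, so their values are given side by side only. Per length, Spp1 was the most abundant member in each progenitor group, with a mean of 6.63 FPKM in pMN, 8.57 in iNkx2.2 and 1.82 in iSDmut. In iNkx2.2 the order then ran Hepacam2 at 5.49, Casz1 at 4.10 and Asb4 at 1.81 FPKM, with SDs of 0.168, 0.686 and 0.141 (n = 3). In pMN, Asb4 at 1.03 FPKM, Hepacam2 at 0.791 and Casz1 at 0.484 followed Spp1, with SDs of 0.0872, 0.224 and 0.209 (n = 3), and the libraries of Hepacam2 overlapped those of Casz1. In iSDmut the other members stood at 0.504 to 0.747 FPKM, and Casz1 and Hepacam2 did not differ there beyond their spread. In the authors' deposited table of 1161 progenitor genes, 32 are called higher in wild type than in mutant. Casz1 and Hepacam2 are among them, with log2 fold changes of 2.13 and 3.27, and Spp1 and Asb4 are not listed. These calls come from the same libraries as the choice of members and are no separate support.

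The progenitors also differed in identity. Of 6 motor neuron progenitor genes, all tested, 4 fell from pMN to iNkx2.2 and 4 from pMN to iSDmut (edgeR quasi-likelihood test, adjusted p under 0.05), where 9.49% and 3.54% of all genes were called in either direction. Their median log2 fold change was -5.23 in the first comparison and -2.46 in the second, beside -0.01 over all genes in both. Neurog2, a neurogenic factor of these progenitors, and Pax6, which patterns them, were higher in iSDmut than in iNkx2.2 by 3.56 and 2.77 on the log2 scale (adjusted p = 0.0304 for each in edgeR), where 0.281% of all genes were called. In that comparison 4 of the 6 genes had a log2 fold change above 0 and the rest did not, with a median of 2.45 over the list. In bulk libraries, fewer cells that express a gene and less RNA per cell cannot be told apart, and the part of cell identity in the levels of the members was not tested.

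The genes most like each member over the 8 libraries repeated these different shapes. Among 12203 other genes, Casz1 was followed by Rin2 (Pearson r = 0.993), Kndc1 (0.989) and Myrip (0.988), and Hepacam2 by Dtx1 (0.993), Efs (0.981) and Fam43a (0.970). Spp1 was followed by Sema6b (0.982), Mt1 (0.980) and Folr1 (0.968), and Asb4 by Atp2c2 (0.959), Sema6b (0.956) and Spr (0.954). Dtx1, a regulator of Notch signalling, stood at 1.21 to 1.73 CPM in pMN, 5.96 to 7.03 CPM in iNkx2.2 and 1.29 to 1.66 CPM in iSDmut. Folr1, a folate receptor, stood at 3.95 to 6.39 CPM, 5.06 to 9.28 CPM and 0.672 to 1.41 CPM in the same groups. These correlations were picked as the highest of many and describe 8 libraries in 3 groups, so no p is given.

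The listed partners and relatives of Spp1, Asb4 and Hepacam2 gave no edgeR call in progenitors. Of all genes, edgeR called 0.281% from iNkx2.2 to iSDmut, 9.49% from pMN to iNkx2.2 and 3.54% from pMN to iSDmut. Beside those shares, 0 calls in lists this short say little about the families. Of 11 osteopontin receptor genes, 10 were tested in progenitors, and edgeR called 0 in each of the 3 progenitor comparisons. From pMN to iNkx2.2, 4 of them had an unadjusted p under 0.05 and DESeq2 called 1, where it called 2271 of the 15653 genes. From iNkx2.2 to iSDmut 1 had such a p and DESeq2 called 1, where it called 476 of all genes. The share of all genes with such a p was not computed. From pMN to iSDmut both counts were 0. Asb4 has 17 relatives in the ASB list, of which 8 were tested in progenitors. Over all 7 comparisons, including pancreas and islets, edgeR called 0 of 67 ASB family tests, of which 5 had an unadjusted p under 0.05 and DESeq2 called 1. The share of all genes called by edgeR ran from 0.00534% to 9.49% over the 7 comparisons. Cul5, Rnf7, Eloc and Elob, the ligase partners of SOCS-box proteins, gave 0 calls in 28 tests, 0 with an unadjusted p under 0.05 and 0 by DESeq2. The nearest relatives of Spp1 (Ibsp, Dmp1, Dspp and Mepe) and of Hepacam2 (Hepacam) had too few reads to be tested in any comparison. Of 13 genes of the NuRD chromatin complex, edgeR called 1 from pMN to iNkx2.2 and 1 at 8 weeks, where 9.49% and 7.94% of all genes were called. It was Rbbp7 in each, which fell from pMN to iNkx2.2 by 0.38 on the log2 scale (edgeR adjusted p = 0.0353). In 8-week betaSDmut islets it rose by 0.31 (edgeR adjusted p = 0.0489). Between iSDmut and iNkx2.2, where 0.281% of all genes were called, edgeR called 0 of the 13, with 0 at an unadjusted p under 0.05 and 0 by DESeq2.

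Around the members, 66 other genes have a start within 500 kb, and 28 of them were tested in progenitors. Every iSDmut library lay below every iNkx2.2 library for 8 of the 28, beside 16.4% of all genes tested, and above for 3. In either direction 31.9% of all genes were apart in this way. Near Casz1 these were Gm572, Dffa, Cenps and Pgd, with log2 fold changes from iNkx2.2 to iSDmut of -1.31, -0.17, -0.34 and -0.18, each smaller than that of Casz1. Near Spp1, Hsd17b11, a steroid dehydrogenase, stood at 13.1 to 20.5 CPM in iNkx2.2 and at 4.82 and 12.1 CPM in iSDmut, while Thoc2l was higher in iSDmut. Vps50 starts 71 bases from Hepacam2 on the other strand, and it was higher in iSDmut (65.4 and 68.5 CPM) than in iNkx2.2 (57.5 to 62.1 CPM). Samd9l, also near Hepacam2, was below 1 CPM in every progenitor library.

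Asb4 had lower neighbours of its own. Pon2 and Pon3, paraoxonase genes that lie between Peg10 and Asb4, stood at 6.89 and 15.2 CPM and at 0.560 and 1.21 CPM in iSDmut. In iNkx2.2 Pon2 stood at 21.4 to 22.8 CPM and Pon3 at 1.97 to 2.34 CPM, with no overlap for either gene. In pMN Pon3 stood at 1.78 to 2.84 CPM, above both iSDmut libraries, as for Asb4. Pon2 stood at 15.0 to 20.3 CPM in pMN, a range that the higher iSDmut library just reached. Ppp1r9a, also between Peg10 and Asb4, went the other way, with 97.2 and 105 CPM in iSDmut against 67.5 to 91.0 CPM in iNkx2.2. Peg10, the imprinted gene that names the cluster and that was singled out after its values were seen, stood at 1090 to 2148 CPM in pMN, 355 to 714 CPM in iNkx2.2 and 260 to 298 CPM in iSDmut. Hepacam2 lies 1.89 Mb from Asb4 on the same chromosome, and of the 11 tested genes between them 3 were lower and 3 higher in iSDmut without overlap, beside the same 31.9% of all genes. No test was made of these neighbours.

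Nkx2.2 binding was measured by chromatin immunoprecipitation in MIN6, a mouse beta-cell line, so it describes another cell type than the progenitors. The authors' tables hold 10749 binding events and 6473 final sites. Hepacam2 carries 4 events inside its gene body, where 1.64% of 21774 annotated protein-coding genes have 4 or more, and 2 of them are final sites. The events 18.1 and 18.4 kb from its start lie close together, and the share was not matched for gene length. Casz1 has 1 event 3.8 kb upstream of its start, and 4.68% of genes have an event at least as near. That event is not a final site, and the nearest final site lies 227.3 kb away, a distance within which 63.3% of genes have one. The remaining 3 events near Casz1 lie beyond its end, 227.3 to 243.2 kb from the start. Spp1 has its nearest event at 57.5 kb (34.2% of genes have one at least as near), and Asb4 at 833.0 kb, where 92.9% of genes have a nearer or equally near event. With a window of 100 kb on each side, 3 of the 4 members have an event, as do 53.5% of genes. In the authors' deposited table that joins sites to genes, Hepacam2 is listed with a site at position 3479953 of chromosome 6 and a mean log2 CPM of 6.61, and the other members are not listed.

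**Figure D2:**
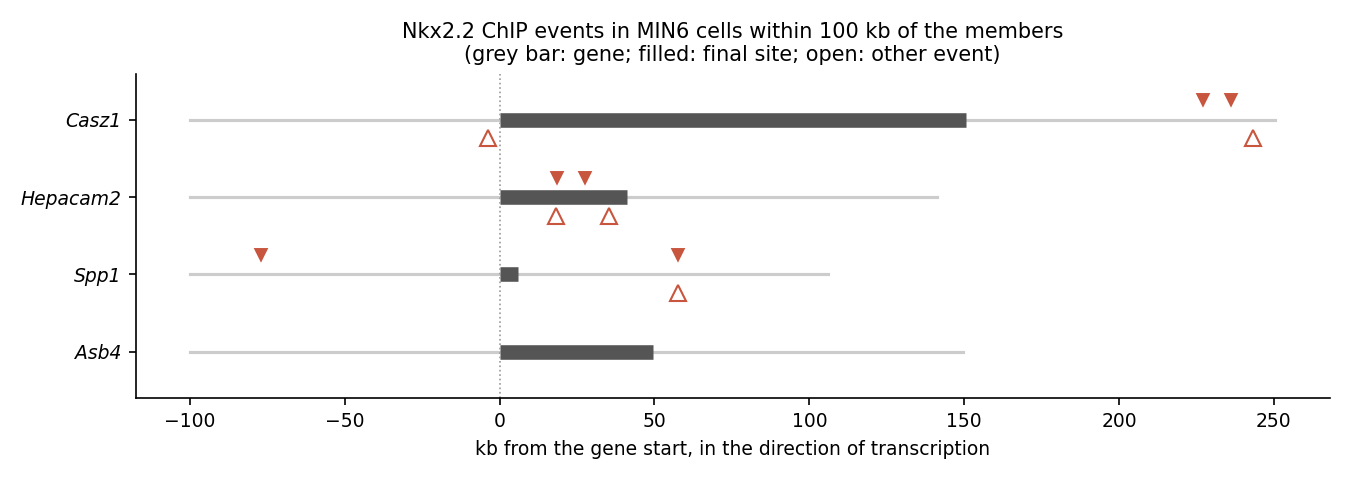
Distance of Nkx2.2 events in MIN6 cells from each member's start, in kb along the direction of transcription (x axis), for the 4 members (rows); thick grey bars are the genes, thin lines the searched span, filled triangles final sites and open triangles other events. Hepacam2 has 4 events inside the gene, Casz1 has 1 near its start, and Asb4 has none in the span.

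The 4 events in Hepacam2 all lie in introns, and the bases around them are shown because no other member has an event inside the gene. Each run gives 61 bases of the plus strand of GRCm38 centred on the event (RefSeq sequence), with capitals for AAGTG or its complement, the core that Nkx2 proteins bind.
Hepacam2 intron event, chr6:3462873-3462933, 46 and 46 reads: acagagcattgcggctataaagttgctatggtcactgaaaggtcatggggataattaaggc
Hepacam2 intron event, final site, chr6:3470872-3470932, 74 and 41 reads: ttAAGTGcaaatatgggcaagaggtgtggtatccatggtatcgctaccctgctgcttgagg
Hepacam2 intron event, final site, chr6:3479923-3479983, 76 and 58 reads: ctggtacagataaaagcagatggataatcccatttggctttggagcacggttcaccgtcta
Hepacam2 intron event, chr6:3480185-3480245, 71 and 58 reads: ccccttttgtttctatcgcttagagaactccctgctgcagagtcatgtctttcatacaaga
Casz1 upstream event, chr4:148800563-148800623, 43 and 29 reads: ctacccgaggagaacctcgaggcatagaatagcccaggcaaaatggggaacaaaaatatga

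The reads are those of the 2 ChIP replicates, beside medians of 73.0 and 56.0 over all events, so those shown were close to or below the median height. The core AAGTG, searched on both strands, was in 1 of the 11 event windows near the members and in 14.3% of windows of the same length at all events. The longer form TNAAGTGG was in 0 of the 11 and in 1.2% of all event windows.

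Promoters were read from RefSeq for GRCm38.p6, with 250 bases before and 50 after each start. All 4 members matched, with 7 promoters. AAGTG was in 3 of the 7, beside 46.4% of all 32851 promoters, and TNAAGTGG in 0 of 7, beside 3.21%. The core was in neither Casz1 promoter. It was also not in the 1 Hepacam2 window, which belongs to a start inside the gene, at position 3494498, and overlaps an exon, so the region before the outermost Hepacam2 start was not searched. AAGTG was in 1 Spp1 promoter, 109 bases before the start, and in both Asb4 promoters, with 2 copies in the reverse orientation before the downstream start. The bases before those starts are shown for the 2 members that were lower in iSDmut than in pMN, 5′ to 3′ on the plus strand, with the core in capitals.
Spp1 promoter, chr5:104434861-104435110: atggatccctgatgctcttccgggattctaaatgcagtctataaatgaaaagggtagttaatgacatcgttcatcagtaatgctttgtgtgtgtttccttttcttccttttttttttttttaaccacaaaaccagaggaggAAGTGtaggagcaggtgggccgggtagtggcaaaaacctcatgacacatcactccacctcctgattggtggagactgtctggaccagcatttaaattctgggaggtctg
Asb4 downstream promoter, chr6:5390160-5390409: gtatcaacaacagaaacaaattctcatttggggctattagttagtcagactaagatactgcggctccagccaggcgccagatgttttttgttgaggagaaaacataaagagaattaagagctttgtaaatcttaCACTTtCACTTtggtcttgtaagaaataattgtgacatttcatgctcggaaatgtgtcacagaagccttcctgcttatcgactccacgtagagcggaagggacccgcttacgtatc

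In E15.5 pancreas none of the 4 members passed the test between SDmut and control (edgeR, adjusted p = 1.0 for each). The same test called 0.00534% of 18723 genes, that is 1 gene. None of the members had an unadjusted p under 0.05, and DESeq2 called 0 of them. The groups overlapped for every member.

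Hepacam2 stood at 12.3, 10.4 and 8.25 CPM in controls and at 6.27, 7.20, 9.61 and 7.39 CPM in SDmut pancreata. It came nearest to a difference, with a log2 fold change of -0.44 (SE 0.209, unadjusted p = 0.0716 and adjusted p = 1.0 in edgeR). The 3 lowest libraries were SDmut and the 2 highest were controls. A list of 23 endocrine genes, summed, stood at 2923, 1516 and 1245 CPM in controls and at 1058, 798, 1472 and 1152 CPM in SDmut. Hepacam2 and this sum had the same rank in 5 of the 7 libraries. The genes nearest to Hepacam2 over these libraries were Tmie (Pearson r = 0.991), Tox3 (0.982) and Sphkap (0.974). The part of endocrine cell number in the Hepacam2 level was not tested.

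Casz1 stood at 31.8, 30.8 and 44.0 CPM in controls and at 17.3, 42.3, 22.2 and 31.9 CPM in SDmut. Its 2 highest libraries, control 3 and SDmut 2, were those with skeletal muscle transcripts. Without them the log2 fold change was -0.40 (SE 0.254), beside -0.32 (SE 0.304) with all libraries. Casz1 and the summed muscle genes had the same rank in 0 of the 7 libraries. Enah, an actin regulator, had the closest profile (Pearson r = 0.974).

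Spp1 was abundant, at 355, 264 and 217 CPM in controls and at 266, 186, 350 and 281 CPM in SDmut, with a log2 fold change of -0.04 (SE 0.239). Its lowest and highest libraries in each group differed by more than the group means. A list of 12 duct genes, summed, ran from 1542 to 2506 CPM in controls and from 1579 to 2413 CPM in SDmut, and the highest library of both the list and Spp1 was control 1. Ppie, a spliceosomal cyclophilin, had the closest profile (Pearson r = 1.00).

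Asb4 stood at 23.8, 33.5 and 38.5 CPM in controls and at 33.6, 47.7, 22.9 and 28.0 CPM in SDmut, a log2 fold change of 0.05 (SE 0.270). Its nearest genes were Acta2 and Myl9 (Pearson r = 0.992 for each), which encode smooth muscle actin and myosin light chain, and Msrb3 (0.988). A list of 8 mesenchyme genes, summed, stood at 6514, 12510 and 15220 CPM in controls and at 10140, 15320, 5527 and 6849 CPM in SDmut, and it had the same rank as Asb4 in 5 of 7 libraries. The amount of mesenchyme in the libraries was not tested as a part of the Asb4 level.

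**Figure D3:**
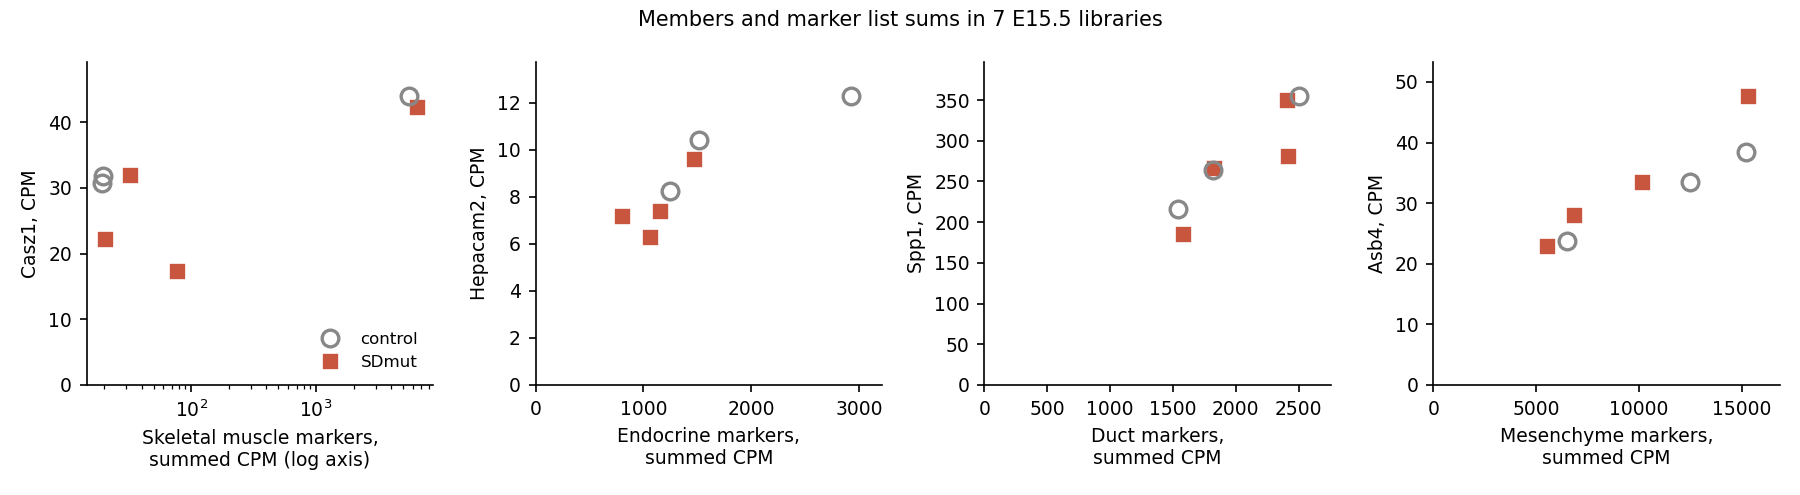
CPM of each member (y axis, from 0) against the summed CPM of a marker list (x axis; log axis for muscle) in 7 E15.5 libraries; open circles are controls and squares SDmut. Hepacam2 is plotted against endocrine, Spp1 against duct and Asb4 against mesenchyme genes, and the 2 libraries with 5583 and 6501 CPM of muscle genes have the highest Casz1.

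In islets the members' levels differed widely. Per length, Hepacam2 was at 187 to 233 FPKM in the 9 libraries, and in 8-week controls its mean of 199.5 FPKM was exceeded by 218 of 23699 rows of the table. That places it above 98.7% of the genes listed above 0 in those islets, while in progenitors it stood above 42.5% in pMN, 60.9% in iNkx2.2 and 39.2% in iSDmut. Spp1 had means of 59.6 to 81.1 FPKM over the 4 groups, Casz1 of 5.06 to 7.59 FPKM and Asb4 of 2.15 to 4.76 FPKM. In every islet group the order was Hepacam2, Spp1, Casz1, Asb4, except that Casz1 and Asb4 stood at 5.06 ± 0.793 and 4.76 ± 0.497 FPKM (SD, n = 2) in the libraries labelled betaKO and did not differ beyond that spread. By contrast, Hepacam2 was below Spp1 in all 3 progenitor groups. The 2 tables were normalised separately, so no fold between tissues is given.

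None of the 4 members passed the test at 8 weeks, where edgeR called 7.94% of 15413 genes, and DESeq2 called 0 of them. Casz1 was the 1 member with an unadjusted p under 0.05. It stood at 31.6 and 34.3 CPM in controls and at 40.1, 48.6 and 37.7 CPM in betaSDmut islets, so that all betaSDmut libraries lay above both controls, as they did for 23.0% of genes. The log2 fold change was 0.35 (SE 0.120, unadjusted p = 0.028, adjusted p = 0.14 in edgeR). In the authors' deposited table Casz1 is called higher in betaSDmut islets than in CTRL, with a log2 fold change of 0.446. The other members are not called, and 938 of the 9971 genes listed carry that call. The label CTRL is used there for both islet mutants. Its libraries may span both ages, so those values are not directly comparable with the age-matched ones.

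Hepacam2 stood at 351 and 310 CPM in 8-week controls and at 383, 307 and 306 CPM in betaSDmut islets. Its log2 fold change was 0.00 with an SE of 0.129 (adjusted p = 0.999 in edgeR), and the control libraries lay inside the betaSDmut range. Spp1 stood at 123 and 52.4 CPM in controls and at 33.3, 105 and 73.6 CPM in betaSDmut. With that spread its log2 fold change of -0.32 had an SE of 0.612, and without the first control it was 0.42. The sum of the duct genes stayed between 454 and 529 CPM in these 5 libraries. Their mean log2 CPM was 3.77 and 3.54 in controls and 3.48, 3.69 and 3.62 in betaSDmut, the same order of libraries as for Spp1. The part of duct cells in the 8-week Spp1 levels was not tested.

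Asb4 at 8 weeks stood at 4.58 and 6.28 CPM in controls and at 12.9, 9.996 and 4.93 CPM in betaSDmut islets. The first 2 betaSDmut libraries lay above both controls and the third lay between them. The log2 fold change was 0.76 (SE 0.423, adjusted p = 0.322 in edgeR). Without the third betaSDmut library it was 1.07 (SE 0.217, adjusted p = 0.046), so 1 library decided that call, and the adjusted p ran from 0.046 to 0.714 over the alternatives tried. The sums of 22 acinar genes were 852 and 1782 CPM in the first 2 betaSDmut libraries, 8046 CPM in the third and 9747 and 6125 CPM in controls. The summed mesenchyme genes were lower in betaSDmut, at 186, 170 and 125.5 CPM, than in controls, at 234 and 294 CPM. The part of acinar and mesenchymal cells in the 8-week Asb4 levels was not tested.

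At 4 weeks none of the 4 members passed the edgeR test, which called 1.56% of 14942 genes. Asb4 was the 1 member with an unadjusted p under 0.05, and DESeq2, which called 770 of all genes, called it. It stood at 6.01 and 5.55 CPM in controls and at 13.4 and 11.01 CPM in the libraries labelled betaKO. Both of the latter lay above both controls, as for 23.2% of genes. The log2 fold change was 1.08 (SE 0.186), a 2.11-fold higher level, with an adjusted p of 0.0659 in edgeR and of 0.00898 in DESeq2. Keeping all genes with a count gave an adjusted p of 0.0444, and the adjusted p ran from 0.00898 to 0.331 over all alternatives tried. The same libraries labelled betaKO had more mesenchyme transcripts, with sums of 390 and 469 CPM against 254 and 229 CPM in controls, and Col1a1 and Col3a1 were 2 of the 8 mesenchyme genes called higher. Their acinar sums were 33750 and 12120 CPM against 8609 and 4801 CPM, with 0 of 22 acinar genes called by edgeR, 7 at an unadjusted p under 0.05 and 2 called by DESeq2. Hormones of other islet cells were higher as well: Gcg, which encodes glucagon, stood at 24900 and 29000 CPM in the lower and higher control and the libraries labelled betaKO held 50400 and 62100 CPM, a log2 fold change of 1.06 (edgeR adjusted p = 0.0484), and Ppy, which encodes pancreatic polypeptide, had a log2 fold change of 1.48 (adjusted p = 0.0255). Of 22 endocrine genes tested edgeR called 2 higher and 1 lower, Ucn3, a gene of mature beta cells, by -1.41, and DESeq2 called 12. In the authors' deposited table Asb4 has a log2 fold change of 1.145 for betaKO against CTRL and is not called. That CTRL need not be the 4-week controls alone. The part of acinar, mesenchymal and other endocrine cells in the 4-week Asb4 level was not tested.

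For the other 3 members the 4-week log2 fold changes were no larger than their errors. Casz1 stood at 29.1 and 26.7 CPM in controls, and the libraries labelled betaKO held 29.6 and 30.4 CPM of it, a log2 fold change of 0.10 (SE 0.107). For Hepacam2 the levels were 315 and 362 CPM against 337 and 321 CPM, controls first (log2 fold change -0.04, SE 0.0994), the smallest error of any member at this age. Spp1 stood at 86.9 and 51.2 CPM against 70.4 and 91.1 CPM (log2 fold change 0.22, SE 0.312).

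**Figure D4:**
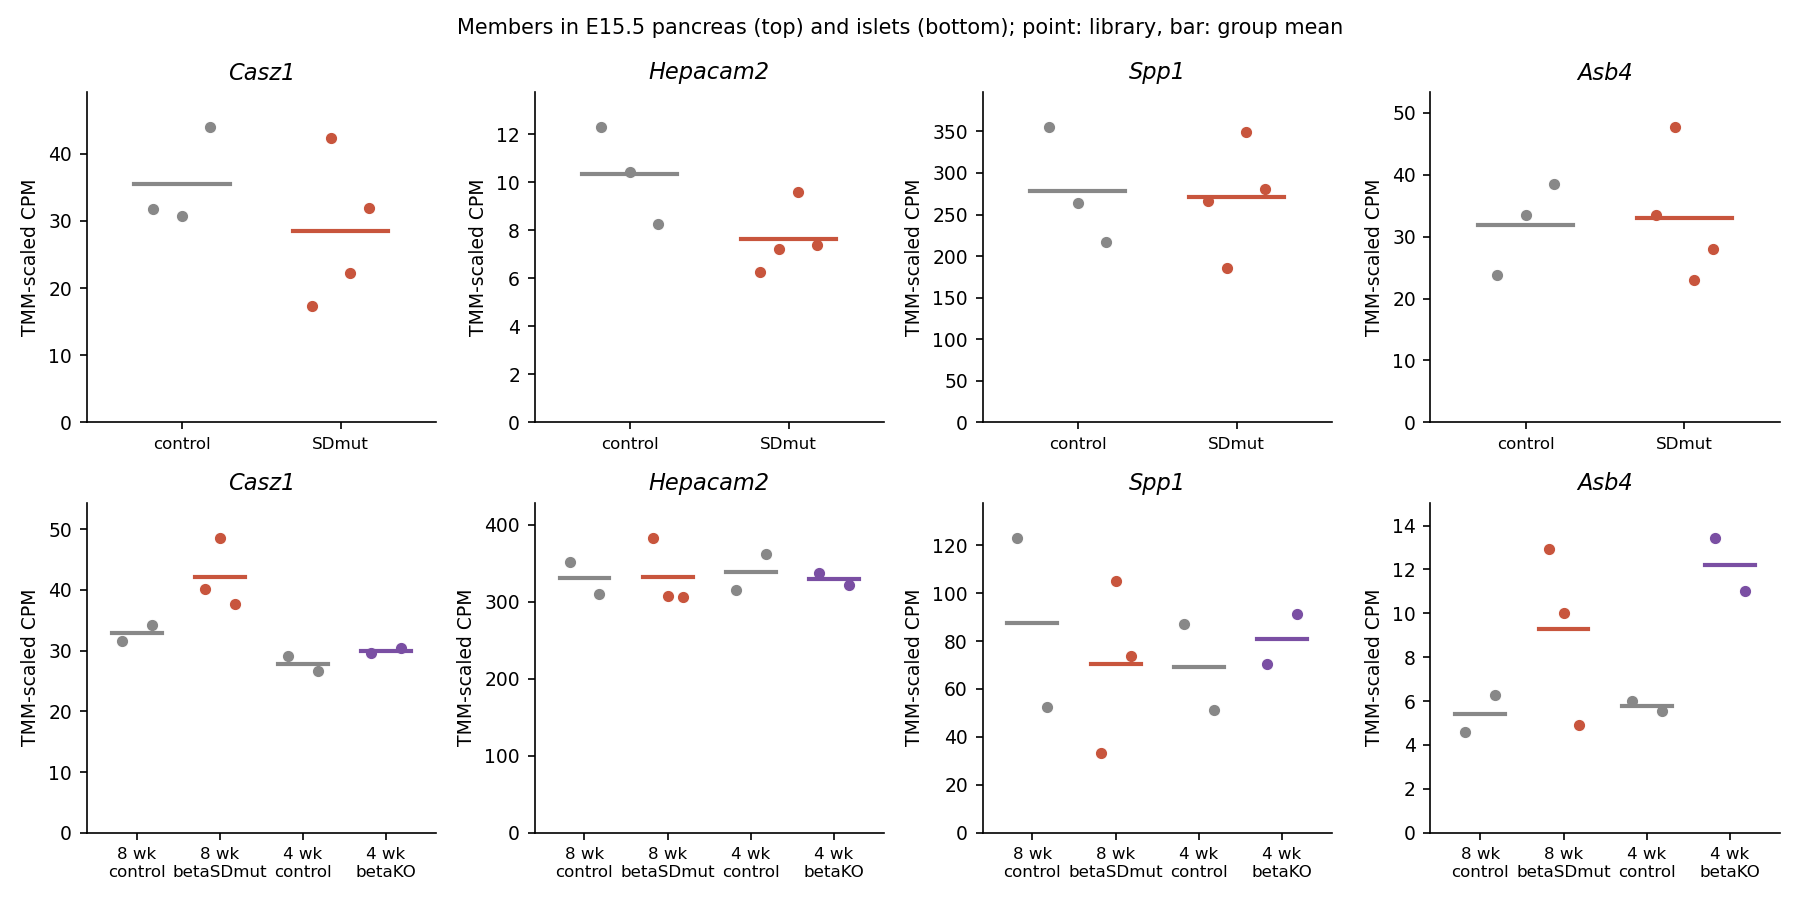
TMM-scaled CPM (y axes, from 0) of the 4 members in E15.5 pancreas (top) and islets (bottom), by group (x axis); points are libraries and bars group means. Groups overlap at E15.5, Hepacam2 stays between 306 and 383 CPM in islets, and Asb4 is highest in the 2 libraries labelled betaKO and in 2 of 3 betaSDmut libraries.

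Over all 9 islet libraries, the closest profiles among 12833 other genes named different genes for each member. Casz1 was followed by Cand1, an exchange factor of cullin ligases (Pearson r = 0.965), Serinc5 and Abr (0.963 for each). Hepacam2 was followed by Birc2, an inhibitor of apoptosis (0.981), and at some distance by Gtpbp8 (0.930) and Ncrna00086 (0.929). For Spp1 they were Scara3 (0.942), Slc28a3 (0.909) and Pex16 (0.892), and for Asb4 Cdc42ep3 (0.956), Ticam1 (0.934) and Ube2l3 (0.933). None of these genes was among the 3 nearest to the same member in progenitors or E15.5 pancreas. The libraries share 2 ages and 4 groups, so these values are descriptions only.

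The effects at 8 and 4 weeks were also set against each other in 1 fit of all 9 islet libraries. That test called 1.21% of 15995 genes and 0 of the 4 members, with 0 at an unadjusted p under 0.05 and 0 by DESeq2. For Asb4 the difference, betaSDmut effect minus betaKO effect, was -0.31 (SE 0.538) on the log2 scale, and for Casz1 it was 0.25 (SE 0.171). Age and genotype both differ between these comparisons.

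**Figure D5:**
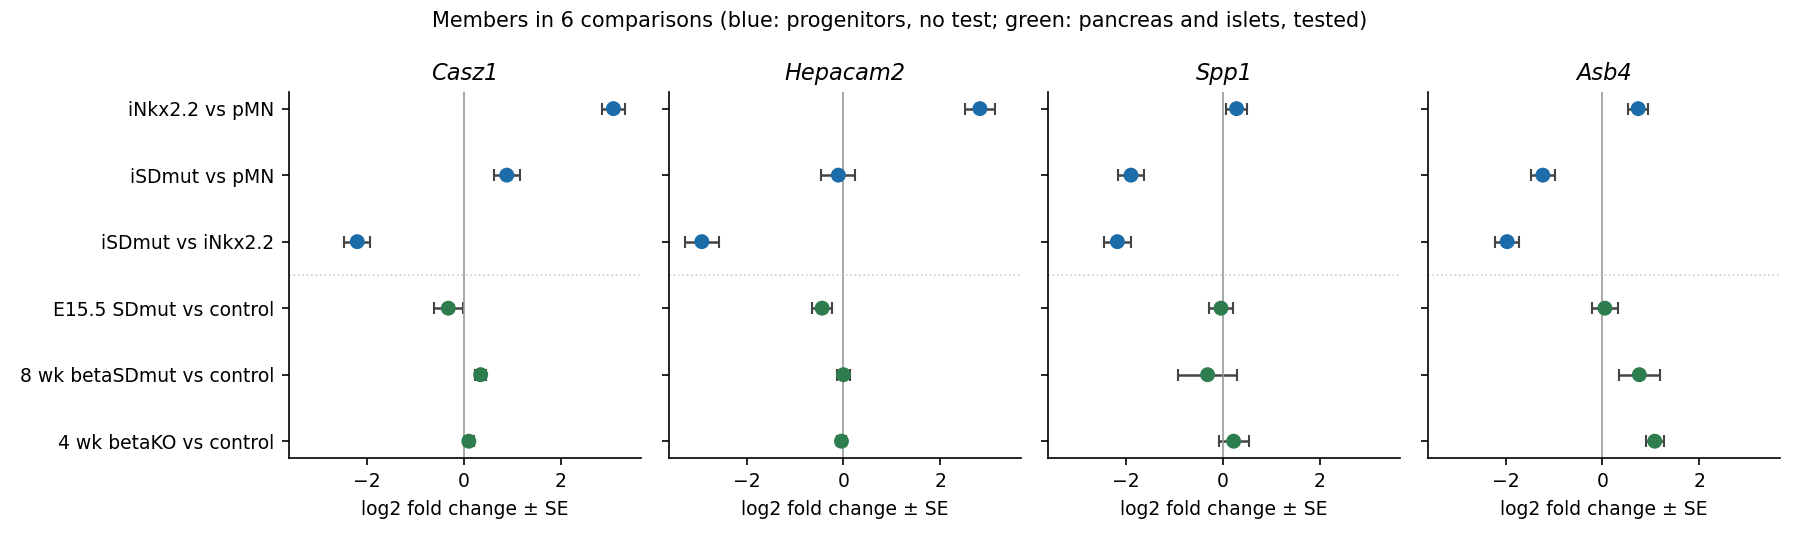
Log2 fold change with its SE (x axis) of the 4 members in 6 comparisons (y axis); blue points are progenitor comparisons, which share libraries and carry no test, and green points pancreas and islet comparisons, which were tested. The progenitor values from iNkx2.2 to iSDmut lie between -2.92 and -1.97, and those of pancreas and islets between -0.44 and 1.08.

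At E15.5, where 0.00534% of all genes were called, edgeR called 0 of the 11 osteopontin receptor genes. Of the 11, 0 had an unadjusted p under 0.05 in edgeR, DESeq2 called 0, and 1 had a log2 fold change above 0. Their median was -0.18, beside 0.01 over all genes. Of the same genes, 2 of 11 were called lower at 8 weeks, where 7.94% of all genes were called: Itgav by 0.53 on the log2 scale and Itgb8 by 1.55 (edgeR adjusted p = 0.0168 and 0.00472). At 4 weeks, where 1.56% of all genes were called, Itgav alone of the 11 was called lower, by 0.60 (edgeR adjusted p = 0.0484). Both encode integrin chains. The median over the list was -0.14 at 8 weeks and -0.18 at 4 weeks, beside 0.01 and 0.00 over all genes. For Itgb8 the betaSDmut effect minus the betaKO effect was -1.77 on the log2 scale (SE 0.218, edgeR adjusted p = 0.0148). Spp1 itself was not called at either age, and its groups overlapped.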

How the data were processed

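The authors deposited raw read counts by gene for all RNA-seq libraries and FPKM for progenitors and islets. Per the submitters' processing notes, STAR, Cufflinks, DESeq2, edgeR 3.20.9, limma 3.34.9, bedtools 2.17.0 and mm10 were used, with no roles given; strand use is not given in the sources used here, so overlapping or antisense genes cannot be separated. The ChIP tables hold the authors' read counts at events and log2 CPM at final sites. The authors' deposited tables of comparisons give log2 fold changes and a score of -1, 0 or 1 for the call.

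Counts were fitted with edgeR 4.0.16 (TMM factors, filterByExpr, robust quasi-likelihood test, Benjamini-Hochberg adjustment over all genes, threshold 0.05). Progenitors entered as 1 model of 3 groups, each islet age alone, and all 9 islet libraries for the difference of effects. The SE was taken as the size of the log2 fold change over the square root of F. DESeq2 1.42.0, other factors, filters, blocks and fits without 1 library were alternatives. Likeness used log2 CPM with a prior count of 2 and genes averaging at least 1. Fits were tested on simulated counts, and Python 3.11.15 read sequences.

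The members and gene lists were chosen with earlier results of these data known. Named genes are the members, Nkx2-2, non-overlapping neighbours within 500 kb, the 3 genes most like each member and called list genes, with the 3 largest where more than 4 were called. A result under this rule is not reported here. Replicate numbers paired pMN with iNkx2.2 (deviations correlated at 0.535, 0.513 and 0.568); the iSDmut correlations ran from 0.0503 to 0.343 and were not taken as pairs.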

Additional observations from a re-analysis of the deposited data

How the results depend on the processing

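The lower iSDmut level kept its direction for all 4 members under every alternative run, and the groups stayed apart for 4 of 4 members by total-size CPM and by the authors' FPKM. Leaving out 1 library at a time, the log2 fold change from iNkx2.2 to iSDmut ran from -2.34 to -2.08 for Casz1, -3.54 to -2.53 for Hepacam2, -2.30 to -1.99 for Spp1 and -2.03 to -1.92 for Asb4. Hepacam2 was -3.61 in lane 2 alone. With replicate number as a block for all libraries the 4 values were -2.05, -2.96, -2.01 and -2.03, although the iSDmut libraries were not taken as pairs. Counts of called genes depended on the settings far more. From iNkx2.2 to iSDmut, 44 genes became 145 without the filter, 476 with DESeq2, 528 with the replicate block, 243 in lane 2, and 1 to 467 without 1 library; from pMN to iNkx2.2, 1486 became 2271 with DESeq2, 4629 with the block and 412 to 1604 without 1 library; from pMN to iSDmut, 554 became 1388, 2626, 151 in lane 2 and 171 to 471.

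At E15.5 the 1 call became 2 by total library size, 25 with DESeq2, 0 with the title number as a block and 0 to 2 without 1 library, and 0 members were called throughout. At 8 weeks 1224 became 2041 with DESeq2, 757 with the block and 37 to 2765 without 1 library, with 0 to 1 members called. At 4 weeks 233 became 127 by total library size, 372 without the filter, 770 with DESeq2 and 4 to 478 without 1 library; 1 member, Asb4, was called without the filter and with DESeq2. For the difference of islet effects, 194 became 649 with DESeq2 and 0 to 343 without 1 library. Where a group was left with 1 library, it was assumed to vary like the others. The cause of these shifts was not tested. Events within 20 kb were found for 2 members instead of 3, and 5 of the 36 most alike genes were also named by Spearman correlation. Low counts of Hepacam2 and Asb4 in iSDmut limit their precision.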
